A study of Mus musculus with 6 samples.

Results

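The 10 genes studied belong to the glutathione S-transferase (GST) superfamily and were measured in mouse esophageal organoids: Gsta1, Gsta2, Gm3776 and Gsta4 of the alpha class, Gstm1, Gstm2 and Gstm5 of the mu class, Gsto1 of the omega class, Gstp1 of the pi class and the membrane-bound Mgst1. They were chosen by name, 10 of the 32285 genes in the deposited tables, with earlier results of these libraries in view, so their levels and changes describe these libraries. Basal cells of the esophageal epithelium of C57BL6 mice, positive for integrin-b1 and negative for the dead-cell stain DAPI, were sorted by Cyto-ID, a dye that labels autophagic vesicles, into a Low and a High population. Each population was grown in Matrigel for 15 days as organoids, which were dissociated, depleted of dead cells and profiled with droplet-based 3′ single-cell RNA sequencing. There were 3 Cyto-ID Low and 3 Cyto-ID High libraries, and each group had replicates labelled F2, M3 and F6. No library carried a genetic change by its labels, and the medium given for both groups held 0.1 mM N-acetyl-L-cysteine, itself a thiol antioxidant, with 50 ng/ml EGF, 10 µM Y27632 and 3.0% Noggin/R-Spondin-conditioned medium. The dye marked the cells that were seeded, and the cells sequenced were their descendants.

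GSTs join the tripeptide glutathione to electrophilic compounds, which makes them more soluble and lets transporters export them. Alpha, mu and pi enzymes are soluble dimers that act on xenobiotics and on products of lipid peroxidation. Gsta4 prefers hydroxynonenal, a reactive aldehyde from oxidised lipids. The omega enzyme Gsto1 has a cysteine in its active site and reduces glutathionylated proteins and dehydroascorbate rather than conjugating foreign compounds. Mgst1 sits in the membranes of the endoplasmic reticulum and mitochondria and reduces lipid hydroperoxides. Many GST genes are targets of the transcription factor NRF2. In the stratified esophageal lining, basal cells divide, suprabasal cells differentiate and superficial cells are shed.

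The alpha-class genes lay together on mouse chromosome 9 in the GENCODE annotation of GRCm38: Gsta4 at chr9:78182774-78209349, Gsta1 at chr9:78230656-78242684 and Gm3776 at chr9:78257129-78269166 on the plus strand, and Gsta2 at chr9:78331018-78355788 on the minus strand. The 3 mu genes were on chromosome 3, Gstp1 and Gsto1 on chromosome 19, and Mgst1 on chromosome 6. Gsta1, Gm3776 and Gsta2 are near-copies, and the sequence upstream of each RefSeq start is shown (GRCm38.p6, 5′ to 3′ on the gene's strand, ending 31 bases before the start) because their levels moved together in the results that follow. They lie at chr9:78230419-78230638 (Gsta1, plus strand), chr9:78256879-78257098 (Gm3776, plus strand) and chr9:78347176-78347395 (Gsta2, minus strand). The stretches of Gsta1 and Gm3776 lie outside the GENCODE spans of their genes. That of Gsta2 lies inside its span, so the RefSeq start used for Gsta2 differs from the GENCODE start of the gene. Capitals mark the longest stretch that the 3 upstream regions share.
Gsta1: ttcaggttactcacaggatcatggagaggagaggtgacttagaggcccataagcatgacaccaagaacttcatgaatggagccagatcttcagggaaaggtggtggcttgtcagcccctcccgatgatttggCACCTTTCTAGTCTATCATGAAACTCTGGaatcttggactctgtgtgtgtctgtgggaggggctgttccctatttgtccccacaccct
Gm3776: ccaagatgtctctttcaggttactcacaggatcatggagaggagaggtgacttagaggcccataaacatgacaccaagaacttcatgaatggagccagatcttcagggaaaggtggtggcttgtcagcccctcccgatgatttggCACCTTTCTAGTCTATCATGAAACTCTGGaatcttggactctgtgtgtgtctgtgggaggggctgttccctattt
Gsta2: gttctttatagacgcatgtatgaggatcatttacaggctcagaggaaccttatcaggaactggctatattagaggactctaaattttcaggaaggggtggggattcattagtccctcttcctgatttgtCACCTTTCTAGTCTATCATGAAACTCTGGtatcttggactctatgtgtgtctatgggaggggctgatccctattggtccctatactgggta
The shared stretch of 29 bases began 118 bases before the start of Gsta1, 105 before that of Gm3776 and 121 before that of Gsta2. It occurred in 3 of 32851 RefSeq promoter windows of the same length (0.00913%), those of these 3 genes, over both strands. Over the 250 bases upstream, Gsta1 and Gm3776 were 89.7% identical, Gsta1 and Gsta2 71.4%, and Gm3776 and Gsta2 65.1%. RefSeq windows were matched for 9 of the 10 members, all but Gsta4. The core of the antioxidant response element to which NRF2 binds, TGACNNNGC on either strand, was found in the windows of Gstm5 (TGACCACGC) and Mgst1 (TGACCGTGC, on the opposite strand), against 12.4% of all windows. A match in these letters is a description of sequence only.

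The same likeness limits how far the alpha copies can be told apart by their reads. The transcripts of Gsta1 and Gm3776 were 99.4% identical, those of Gsta1 and Gsta2 96.7%. Of the 91-base windows in the last 500 bases, where reads of this assay fall, 77.6% of Gsta1's and 77.8% of Gm3776's occurred unchanged in another gene. The share was 9.76% for Gsta2 and 68.0% for Gstp1, which is 90.6% identical to Gstp2. It was 0 for the other 6 members. How reads shared by copies were counted is not given in the sources used here, so the levels of Gsta1, Gm3776 and Gstp1 are uncertain, and the 3 alpha copies are not independent observations.

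Cells with at least 500 detected genes numbered 25154 of 26808 barcodes, 2667 to 5617 per library. Median depth ran from 1940.5 to 10038 unique molecular identifiers (UMIs, each counting one captured transcript molecule) per cell. Pairs of libraries shared 0 to 10 cell barcodes. Keratinocyte markers Krt5, Krt14, Trp63 and Krt13 were present in every library, and the summed fibroblast and endothelial marker lists stayed below 5 CPM (UMIs of a gene per 1000000 UMIs of a cell). The 4 muscle markers summed to 13.3, 6.43 and 5.72 CPM in Low F2, M3 and F6. In High F2, M3 and F6 they summed to 16.9, 4.88 and 5.86 CPM, with Des at 0 in each library but High F2. The list of 4 neural and glial markers summed to 0.083 to 0.534 CPM in the Low and 5.58 to 7.43 CPM in the High libraries, with its defining gene Sox10 at 0 in 5 of 6 libraries. The 6 immune markers summed to 14.7 to 22.1 CPM in 4 libraries and to 10.9 and 8.36 CPM in High F2 and High F6, with the pan-leukocyte gene Ptprc at 0 in all 6. The 6 markers of simple epithelium summed to 1261, 945.3 and 814.6 CPM in the Low and 757.9, 733.9 and 153.7 CPM in the High libraries, without overlap, with Muc5ac or Cftr or both at 0 in each library. The part of the neural and the simple epithelium markers, which move with the groups, in the results was not tested. Cells fell into 10 clusters, found without any GST gene, of which 8 were named by markers of esophageal layers: clusters 0, 4 and 6 as basal-like, 5 and 8 as proliferating-like, 1 and 7 as suprabasal-like, and 3 as superficial-like. Cluster 2, led by Krt12, and cluster 9, an interferon-led group with low UMI counts, stayed unnamed. Fewer cells of a kind and less RNA per cell cannot be told apart where all cells are averaged.

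Together the 10 members took 0.974% to 2.72% of all UMIs of a library, most of it from Gsto1 and Gsta4. Gsto1 supplied 55.1% to 82.5% of the members' UMIs and Gsta4 16.2% to 35.3%. All levels below are means over cells of each cell's CPM, and libraries are always named in the order F2, M3, F6. The level of Gsto1 over all cells was 16855, 12399 and 15768 CPM in the Low and 10228, 10658 and 5280 CPM in the High libraries. That of Gsta4 was 3372, 5213 and 4652 CPM in the Low and 3005, 6957 and 3264 CPM in the High libraries. The other 8 members had means of 21.4 CPM (Gsta2) to 120.6 CPM (Gstp1) over the 6 libraries. All 10 passed the filter of at least 1 CPM in at least 3 libraries, and the fewest UMIs in total were the 3279 of Gsta2.

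**Figure D1:**
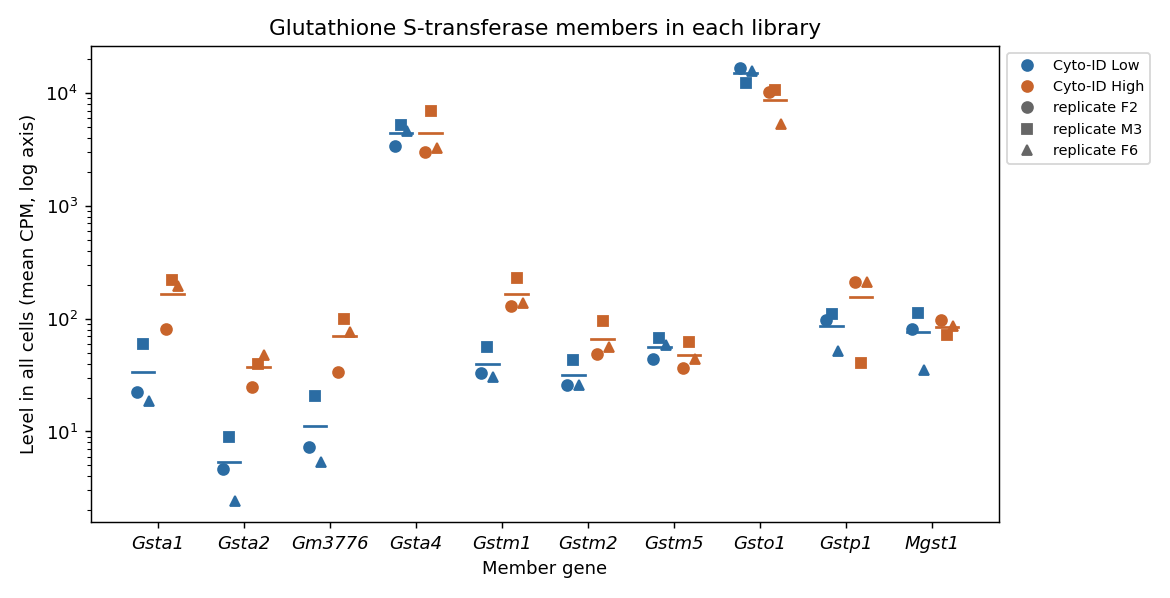
Level of each member in all cells (mean CPM, log axis) in the 3 Cyto-ID Low (blue) and 3 Cyto-ID High (orange) libraries; marker shape gives the replicate and the bar the group mean. High points lie above all Low points for Gsta1, Gsta2, Gm3776, Gstm1 and Gstm2, below them for Gsto1, and overlap them for the other 4.

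Members differed in the class of cells where they were highest. Classes were built from these same cells, so their levels are given without a test. By class, Gsto1 was higher in suprabasal-like than in basal-like cells and highest in superficial-like cells in 6 of 6 libraries. Its level was 1356 to 2353 CPM (median 1960) in basal-like cells, 1552 to 2534 CPM in proliferating-like cells, 10553 to 28151 CPM in suprabasal-like cells and 38900 to 59858 CPM in superficial-like cells. Basal-like and proliferating-like ranges overlapped, while the superficial-like level exceeded the suprabasal-like level in 6 of 6 libraries, by 1.94-fold to 3.69-fold. In superficial-like cells Gsto1 alone made up 5.07% of a cell's UMIs on average. The 2 suprabasal-like clusters differed. Gsto1 averaged 27307 CPM in the Low and 21754 CPM in the High libraries in cluster 1, against 8658 and 3463 CPM in cluster 7.

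Gsta4, the hydroxynonenal enzyme, peaked one layer earlier. Its level was 1953 ± 859 CPM in basal-like, 2480 ± 605 in proliferating-like, 9065 ± 2685 in suprabasal-like and 4494 ± 1905 CPM in superficial-like cells (SD, n = 6). Suprabasal-like cells were above basal-like cells in 6 of 6 libraries, by 3.38-fold to 7.13-fold, and above superficial-like cells in 6 of 6, by 1.69-fold to 2.82-fold. Levels of neighbouring classes at the low end, basal-like and proliferating-like, overlapped.

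Gsta1, Gsta2 and Gm3776 shared the suprabasal-like peak at much lower levels. Gsta1 averaged 28.0 CPM in basal-like, 43.0 in proliferating-like, 311.7 in suprabasal-like and 41.9 CPM in superficial-like cells. Suprabasal-like cells held the highest of the 4 class levels of all 3 genes in 6 of 6 libraries. The place of superficial-like cells varied: their Gsta1 level exceeded that of basal-like cells in the 3 Low libraries and in High M3, and their Gsta2 level in Low M3 and Low F6. The difference between the groups in this order was not tested. Within the suprabasal-like class the 3 genes were concentrated in cluster 7, led by Calm4, Sprr1b and Krtdap. That cluster held 7.77% of all UMIs but 55.2% of those of Gsta1, 44.7% of those of Gsta2 and 64.9% of those of Gm3776. These shares pool the 6 libraries, and High libraries supplied 85.6% of the cells of cluster 7. In cluster 1, the other suprabasal-like cluster, Gsta2 averaged 9.79 CPM in the Low and 23.4 CPM in the High libraries. Both means were below those of basal-like cluster 4, at 11.8 and 67.7 CPM.

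Mu-class genes were lowest in superficial-like cells. Gstm1 averaged 118.6 CPM in basal-like, 148.6 in proliferating-like, 111.1 in suprabasal-like and 9.27 CPM in superficial-like cells. Superficial-like cells were the lowest in 6 of 6 libraries, 3.61-fold to 79.4-fold below suprabasal-like cells, where the widest ratio rests on 1 UMI in the High F6 library. Gstm2 averaged 62.0, 71.8, 38.5 and 5.13 CPM over the same 4 classes, and Gstm5 67.5, 65.5, 36.6 and 18.6 CPM. Both were lower in suprabasal-like than in basal-like cells in 6 of 6 libraries. For Gstm1 the suprabasal-like to basal-like ratio was 0.52 to 0.74 in the Low and 0.99 to 1.10 in the High libraries. Gstm2 averaged 41.9 CPM in the Low and 99.4 CPM in the High libraries in suprabasal-like cluster 7, against 16.6 and 19.3 CPM in cluster 1. In basal-like cells it averaged 53.8 and 144 CPM in cluster 4, 42.9 and 59.1 CPM in cluster 0, and 28.7 and 27.3 CPM in cluster 6. Clusters 4 and 7 each held 25.2% of the UMIs of Gstm1, against 7.0% and 7.77% of all UMIs. These shares pool the 6 libraries, and High libraries supplied 77.0% and 85.6% of the cells of clusters 4 and 7. Cluster 4 is a basal-like group led by Igfbp2, Mt3, Adh7 and Ces1h, among whose 10 leading genes Gstm1 itself stood. Gstm1 averaged 170 CPM in the Low and 361 CPM in the High libraries in cluster 7, and 126 and 422 CPM in cluster 4. It averaged 15.0 and 33.0 CPM in cluster 1, 48.6 and 77.9 CPM in cluster 0, and 23.1 and 29.4 CPM in cluster 6.

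Gstp1 and Mgst1 were also lowest in superficial-like cells, in 6 of 6 libraries. Gstp1 averaged 127.9 CPM in basal-like, 165.6 in proliferating-like, 122.9 in suprabasal-like and 15.3 CPM in superficial-like cells, highest in proliferating-like cells in 6 of 6 libraries although the ranges of the first 3 classes overlapped. By cluster, Gstp1 averaged 185 CPM in the Low and 304 CPM in the High libraries in suprabasal-like cluster 7. In cluster 1, the other suprabasal-like cluster, it averaged 62.5 and 60.9 CPM. In basal-like cells it averaged 148 and 298 CPM in cluster 4, 94.3 and 108 CPM in cluster 0, and 74.9 and 55.2 CPM in cluster 6. In proliferating-like cells it averaged 108 and 200 CPM in cluster 5, and 145 and 227 CPM in cluster 8. These means were below those of clusters 7 and 4 in both groups. Mgst1 stepped down from 103.2 CPM in basal-like to 46.7 in suprabasal-like and 12.1 CPM in superficial-like cells, and both steps were seen in 6 of 6 libraries. By cluster, Mgst1 averaged 85.2 CPM in the Low and 85.6 CPM in the High libraries in cluster 7, and 31.6 and 32.8 CPM in cluster 1. In basal-like cells it averaged 114 and 124 CPM in cluster 4, 122 and 112 CPM in cluster 0, and 61.8 and 44.3 CPM in cluster 6. In the plot of levels by class, Gsto1 is highest at the superficial-like end, the alpha genes peak in suprabasal-like cells and are lower again in superficial-like cells, and the mu, pi and microsomal genes are lowest at the superficial-like end.

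**Figure D2:**
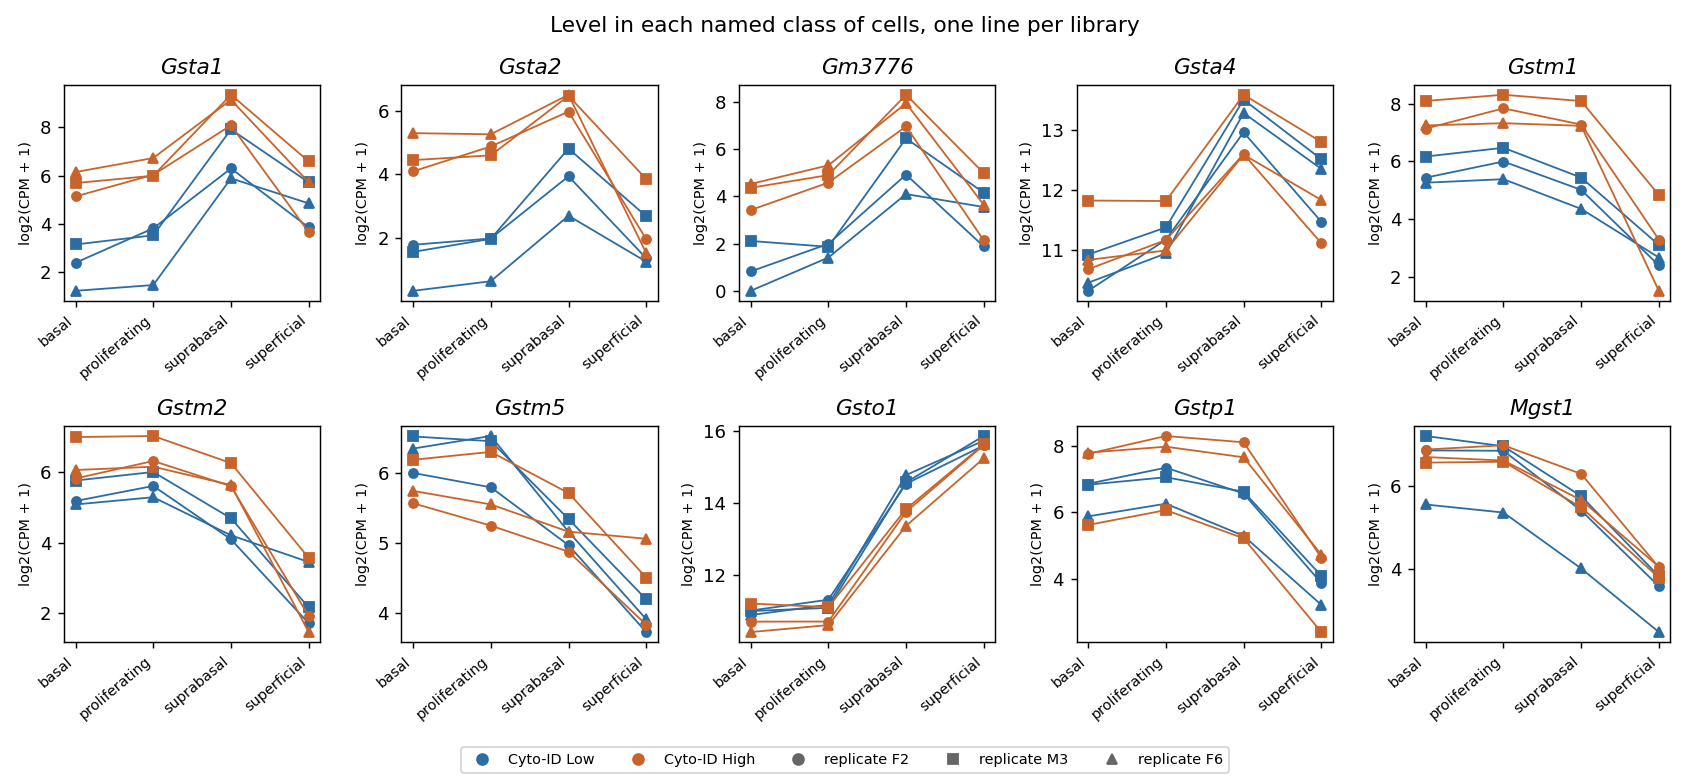
Level of each member, as log2(CPM + 1), in the 4 classes of cells, ordered from basal-like to superficial-like; each line is 1 library, blue for Cyto-ID Low and orange for Cyto-ID High, with the replicate as marker shape. Gsto1 is highest in superficial-like cells, the 4 alpha genes in suprabasal-like cells, and the other 5 members are lowest in superficial-like cells.

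The 3 alpha copies, Gstm1 and Gstm2 were higher in each Cyto-ID High library than in each Cyto-ID Low library over all cells, and Gsta2 passed the test. Gsta1 stood at 22.3, 59.9 and 18.7 CPM in the Low and 81.8, 219 and 197 CPM in the High libraries. Gsta2 stood at 4.62, 8.93 and 2.44 CPM against 24.8, 39.6 and 47.8 CPM. For Gm3776 the values were 7.27, 20.6 and 5.32 CPM against 33.9, 99.2 and 77.0 CPM. In all 3 the lowest High library was above the highest Low library, and M3 was the highest of the Low libraries. Gstm1 showed the same separation, with 32.7, 56.7 and 30.2 CPM in the Low and 129, 230 and 136 CPM in the High libraries. Gstm2, a close relative, was at 25.6, 42.9 and 25.7 CPM against 48.2, 94.8 and 55.9 CPM, again without overlap. Groups did not overlap for 5 members with High above Low, against a background of 4.48% of the 11645 genes tested, and for 1 member, Gsto1, with High below Low, against 8.13% (12.6% in either direction). Because the members were chosen with this contrast known, nothing is read from these counts.

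Tested across all genes with limma, Gsta2 was the 1 member past the threshold over all cells, where 0.172% of genes passed. Its log2 change on the log2(CPM + 1) scale was 2.79 ± 0.40 (SE; adjusted p = 0.0476), higher in 3 of 3 pairs. Changes of 2.44 ± 0.52 in Gsta1, 2.74 ± 0.53 in Gm3776, 2.14 ± 0.34 in Gstm1 and 1.14 ± 0.34 in Gstm2 did not pass (adjusted p = 0.235, 0.165, 0.0599 and 0.454). With the replicate label as a block, all 5 passed, with adjusted p = 0.0295 for Gsta1, 0.0260 for Gsta2, 0.0205 for Gm3776, 0.00473 for Gstm1 and 0.0479 for Gstm2, where 0.584% of genes passed. The call on Gsta2 was lost (adjusted p = 0.0572 to 0.326) without any one of Low F2, Low F6, High F2, High M3 or High F6, and kept without Low M3 (0.0189). The labels do not say whether replicates came from separate animals, so the p-values measure only the spread between these samples.

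The 5 other members were not called in either direction over all cells. Gsta4 had a log2 change of 0.02 ± 0.45 (adjusted p = 0.994), with the M3 pair higher and the F2 and F6 pairs lower in High. Gsto1 was lower in High in 3 of 3 pairs, with a log2 change of -0.73 ± 0.42 (adjusted p = 0.686). The share of superficial-like cells, where Gsto1 is highest, was 19.6%, 8.72% and 13.3% in the Low and 11.1%, 9.55% and 3.93% in the High libraries, and the part of that share in the all-cell level was not tested. Gstm5 was also lower in 3 of 3 pairs but with overlapping groups, at 44.2, 67.4 and 58.0 CPM against 36.8, 62.1 and 44.1 CPM. Gstp1 was split between replicates, at 98.2, 110 and 51.4 CPM in the Low and 214, 40.6 and 211 CPM in the High libraries. Its near-copy Gstp2 had the same dip in High M3, at 4.75 CPM against 31.9 in High F2 and 23.4 in High F6. Mgst1 was at 81.5, 113 and 35.4 CPM against 97.5, 72.2 and 85.8 CPM, and it too was higher in High in the F2 and F6 pairs and lower in the M3 pair.

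Basal-like cells of the Low libraries held little of the alpha copies, and 4 members rose from Low to High in this class. Gsta1 was at 4.21, 7.82 and 1.32 CPM in the Low and 34.2, 50.6 and 69.9 CPM in the High libraries. Gsta2 was at 2.45, 1.95 and 0.262 CPM against 16.1, 20.9 and 38.4 CPM, and Gm3776 at 0.765, 3.32 and 0 CPM against 9.69, 19.6 and 22.0 CPM. The Low F6 library rested on 3 UMIs of Gsta1, 1 of Gsta2 and 0 of Gm3776 among 2406531, and a count of 0 allows up to 1.25 CPM, from counting error alone. Gsta2 and Gm3776 met the filter of 1 CPM in 3 libraries only with High libraries counted, which limits their calls in this class. Gstm1 was at 42.3, 70.9 and 37.4 CPM in the Low and 139, 271 and 150 CPM in the High libraries. The 4 members that rose were Gsta1, by 3.56 ± 0.46, Gsta2, by 3.52 ± 0.44, Gm3776, by 3.25 ± 0.52 and Gstm1, by 2.03 ± 0.33 on the log2 scale (limma adjusted p = 0.0132, 0.0128, 0.0424 and 0.0467), where 0.232% of 11613 genes passed. With the replicate block Gstm2 joined them (1.12; adjusted p = 0.0305), where 0.913% passed. Groups did not overlap for 5 members with High above (background 3.39%) and 0 with High below (10.2%; 13.6% in either direction). Cluster 4 supplied 156 of 1454, 298 of 2330 and 74 of 1062 basal-like cells in the Low libraries. In the High libraries it supplied 593 of 1867, 596 of 1669 and 581 of 1788. The ratio of the High to the Low mean of Gstm1 was 3.73 over the class, 3.34 in cluster 4, 1.60 in cluster 0 and 1.27 in cluster 6. That of Gsta1 was 11.6, 4.95, 5.98 and 7.13. The part of this mix in the class change was not tested.

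These basal-like calls leaned on single libraries. None of the 4 held without Low F6 (adjusted p = 0.0807 to 0.415) or without High F6 (0.0519 to 0.242). Gm3776 and Gstm1 were also lost without Low F2 (0.117 and 0.186) and without High F2 (0.0665 and 0.0784). The 4 log2 changes stayed between 1.72 and 3.99 whichever library was left out.

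Proliferating-like cells, which express the division genes Birc5, Top2a and Mki67 or the replication genes Mcm3 to Mcm6, showed the same 4 members called. Gsta1 was at 13.0, 10.5 and 1.74 CPM in the Low and 64.5, 62.9 and 105 CPM in the High libraries. Gsta2 was at 2.95, 2.92 and 0.556 CPM against 28.5, 23.3 and 37.4 CPM. Gm3776 was at 2.97, 2.64 and 1.65 CPM against 22.9, 28.9 and 38.8 CPM. Low F6 again held 1 or 2 UMIs of each, fewer than the 3 that a count of 0 allows. Gsta2 met the filter of 1 CPM in 3 libraries only with High libraries counted, which limits its call in this class. Gsta1 rose by 3.51 ± 0.51, Gsta2 by 3.55 ± 0.40, Gm3776 by 3.34 ± 0.33 and Gstm1 by 2.06 ± 0.31 on the log2 scale (limma adjusted p = 0.0231, 0.00569, 0.00357 and 0.0234), where 0.215% of 11651 genes passed, 0.172% upward and 0.0429% downward. With the block 3 members were called, where 0.3% of genes passed. Groups did not overlap for 5 members with High above (background 3.18%) and 0 with High below (12.6%; 15.7% in either direction). Gm3776 kept its call without any single library (0.00221 to 0.0266). Without High F2 the other 3 were lost (Gsta1 0.117, Gsta2 0.0754, Gstm1 0.131), Gsta1 also without High F6 (0.0938) and with the block (0.0536), and Gstm1 also without Low F2 (0.0705) or Low F6 (0.188). Without High M3, where Gstp1 was low, Gstp1 was called as well (1.44; 0.0453).

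In suprabasal-like cells Gstm1 rose from Low to High, and the alpha copies stood higher in each High library than in each Low library. Gsta1 was at 77.6, 241 and 58.1 CPM in the Low and 271, 655 and 568 CPM in the High libraries, which did not overlap. Gstm1 was at 31.3, 42.4 and 19.5 CPM against 154, 271 and 149 CPM. Gsto1 was at 23785, 24481 and 28151 CPM against 13828, 14624 and 10553 CPM, the reverse separation. Gstm1 was the 1 member called, at 2.67 ± 0.37 (limma adjusted p = 0.0269), where 0.338% of 10962 genes passed, 0.31% upward and 0.0274% downward. Groups did not overlap for 5 members with High above (background 6.97%) and for 1, Gsto1, with High below (9.94%; 16.9% in either direction). Gsta1 (2.25 ± 0.55), Gsta2 (2.58 ± 0.46), Gm3776 (2.66 ± 0.58) and Gstm2 (1.59 ± 0.32) missed the threshold (adjusted p = 0.133, 0.0547, 0.0882 and 0.0738) and passed with the replicate block (0.0134, 0.0134, 0.0108 and 0.0100), where 3.28% of genes passed. The call on Gstm1 was lost without Low F2 (0.0533), High F2 (0.0696), Low F6 (0.121) or High F6 (0.112). Without High M3 or without Low M3, Gsta2 was called (0.0426 and 0.0116), without High M3 also Gstp1 (0.0438), and without Low M3 also Gsta1 (0.0193) and Gm3776 (0.0123). Cluster 7 supplied 64 of 633, 153 of 1014 and 20 of 601 suprabasal-like cells in the Low libraries. In the High libraries it supplied 367 of 844, 593 of 1112 and 452 of 996. Cluster 1 supplied the rest, and only in High M3 did it hold fewer than cluster 7 (519 against 593 cells). The part of this mix in the class changes was not tested.

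Superficial-like cells showed 0 called members by limma, with or without the block, and 0 by voom, and 0 members had an unadjusted p under 0.05. Of all 10169 genes, 203 had such a p and 0.0197% passed after adjustment. For 0 members were the groups free of overlap, against 4.9% of genes with High above and 2.43% with High below (7.33% in either direction). Gsta1 was at 13.4, 51.7 and 27.8 CPM in the Low and 11.6, 95.3 and 51.8 CPM in the High libraries, and Gstm1 at 4.29, 7.64 and 5.39 CPM against 8.82, 27.6 and 1.88 CPM. High F6 had 176 superficial-like cells and 1 UMI each of Gsta2, Gstm1 and Gstm2. A difference in this class from the others was not tested.

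**Figure D3:**
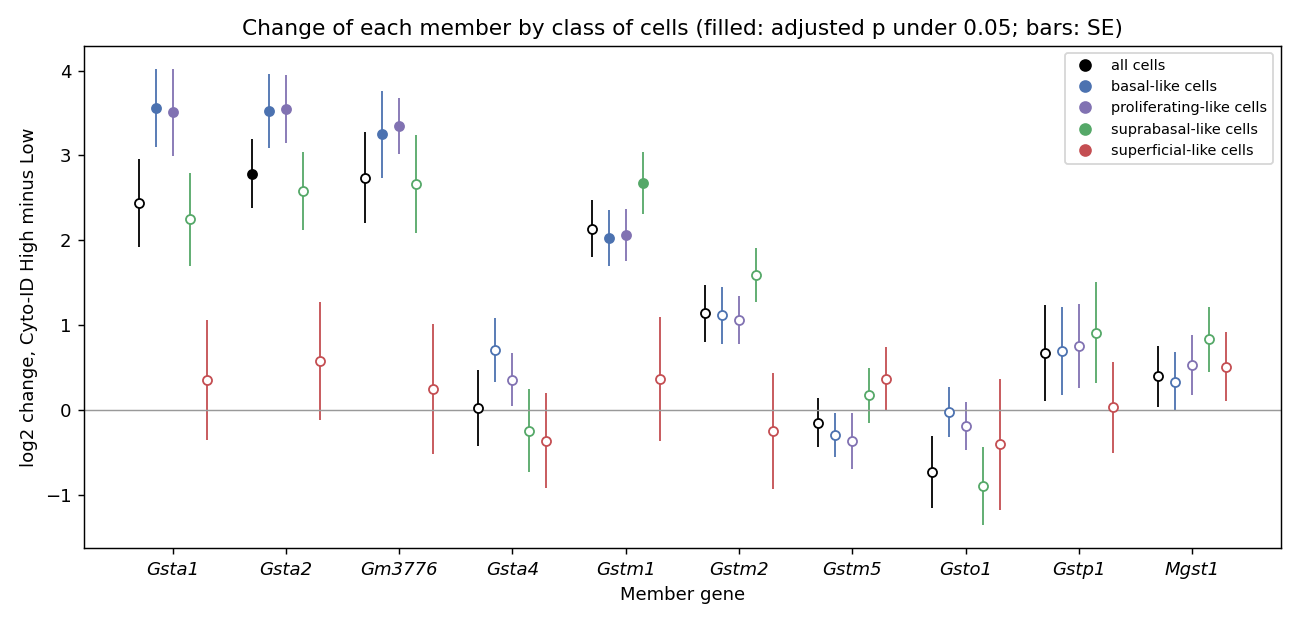
log2 change of each member, Cyto-ID High minus Low, over all cells (black) and in 4 classes of cells (colours), on the log2(CPM + 1) scale; bars are SE, and filled points have a limma adjusted p under 0.05 (n = 3 libraries per group). Filled points belong to Gsta1, Gsta2, Gm3776 and Gstm1 only, and the superficial-like points are all open.

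The share of cells in the clusters richest in these genes moved with the groups. Clusters 4 and 7, among whose leading genes were Gstm1, and Gm3776 and Gsta1, held 6.20%, 8.03% and 3.53% of the cells in the Low and 22.0%, 26.5% and 23.0% in the High libraries. High libraries supplied 77.0% of the cells of cluster 4 and 85.6% of those of cluster 7. Because the genes in question are among the leaders of these clusters, cluster shares and gene levels are not separate observations. With both clusters left out, an alternative chosen after seeing the data, 0 members were called over all cells, in basal-like or in suprabasal-like cells by limma, where 556, 330 and 274 of all genes had an unadjusted p under 0.05. The log2 changes over all cells were then 1.76 for Gsta1, 2.05 for Gsta2, 1.98 for Gm3776 and 1.53 for Gstm1 (adjusted p = 0.933, 0.574, 0.819 and 0.607). In basal-like cells they were 2.51, 1.86, 1.73 and 0.78 (adjusted p = 0.998 for each). In suprabasal-like cells, which then are cluster 1 alone, they were 1.38, 1.25, 1.70 and 0.98 (adjusted p = 1 for each).

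Inside single clusters the picture was mixed. Groups did not overlap for Gsta1 in clusters 0, 4, 5, 6 and 8 and for Gstm1 in clusters 4, 5, 7 and 8, with High above, and overlapped in the other clusters of the 9 that were compared. Of all genes reaching 1 CPM in 3 or more libraries, 2.32% separated that way in cluster 0, 4.32% in cluster 4, 3.49% in cluster 5, 3.5% in cluster 6, 5.19% in cluster 7 and 3.53% in cluster 8. The levels of Gsta1 in clusters 0 and 6 were low. In cluster 0 it was at 1.55, 5.21 and 0 CPM in the Low and 6.10, 13.8 and 20.5 CPM in the High libraries, from 162 UMIs. In cluster 6 it averaged 1.21 ± 1.66 CPM in the Low and 8.62 ± 7.42 CPM in the High libraries (SD). In cluster 0, the largest basal-like cluster, Gstm1 was at 33.9, 71.7 and 40.3 CPM in the Low and 39.8, 112 and 82.0 CPM in the High libraries, and in cluster 6 at 13.0, 29.9 and 26.6 CPM against 18.3, 36.2 and 33.8 CPM, both with overlap. In cluster 5, a proliferating-like cluster led by Birc5, Hist1h1b and Top2a, Gsta1 was at 8.47, 7.34 and 0 CPM in the Low and 62.6, 75.9 and 112 CPM in the High libraries. There Gstm1 was at 61.4, 70.8 and 33.8 CPM against 217, 268 and 163 CPM, and neither gene's groups overlapped. In cluster 4 Gstm1 was at 186, 143 and 50.2 CPM in the Low and 369, 581 and 315 CPM in the High libraries, and Gsta2 at 20.1, 11.6 and 3.76 CPM against 45.9, 54.9 and 102 CPM, both again without overlap. In cluster 7, where the alpha copies were most abundant, Gsta1 was at 472, 824 and 451 CPM against 575, 928 and 911 CPM, and the groups overlapped. The ratio of the High to the Low mean of Gstm1 was 6.15 over suprabasal-like cells, 2.19 in cluster 1, with overlap, and 2.13 in cluster 7. That of Gsta1 was 3.96 over the class, 3.08 in cluster 1 and 1.38 in cluster 7. The Low F6 library had 20 cells in cluster 7 and 74 in cluster 4. Gsto1 in cluster 7 was at 6876, 7398 and 11701 CPM in the Low and 2733, 4485 and 3172 CPM in the High libraries, without overlap, as for 9.08% of genes with High below. In cluster 1, the other suprabasal-like cluster, Gsto1 was at 25687, 27516 and 28718 CPM against 22365, 26210 and 16686 CPM, and the groups overlapped. Superficial-like cells, which are cluster 3 alone, and suprabasal-like cells without clusters 4 and 7, which are cluster 1 alone, were tested as classes. No test was made within any other single cluster.

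**Figure D4:**
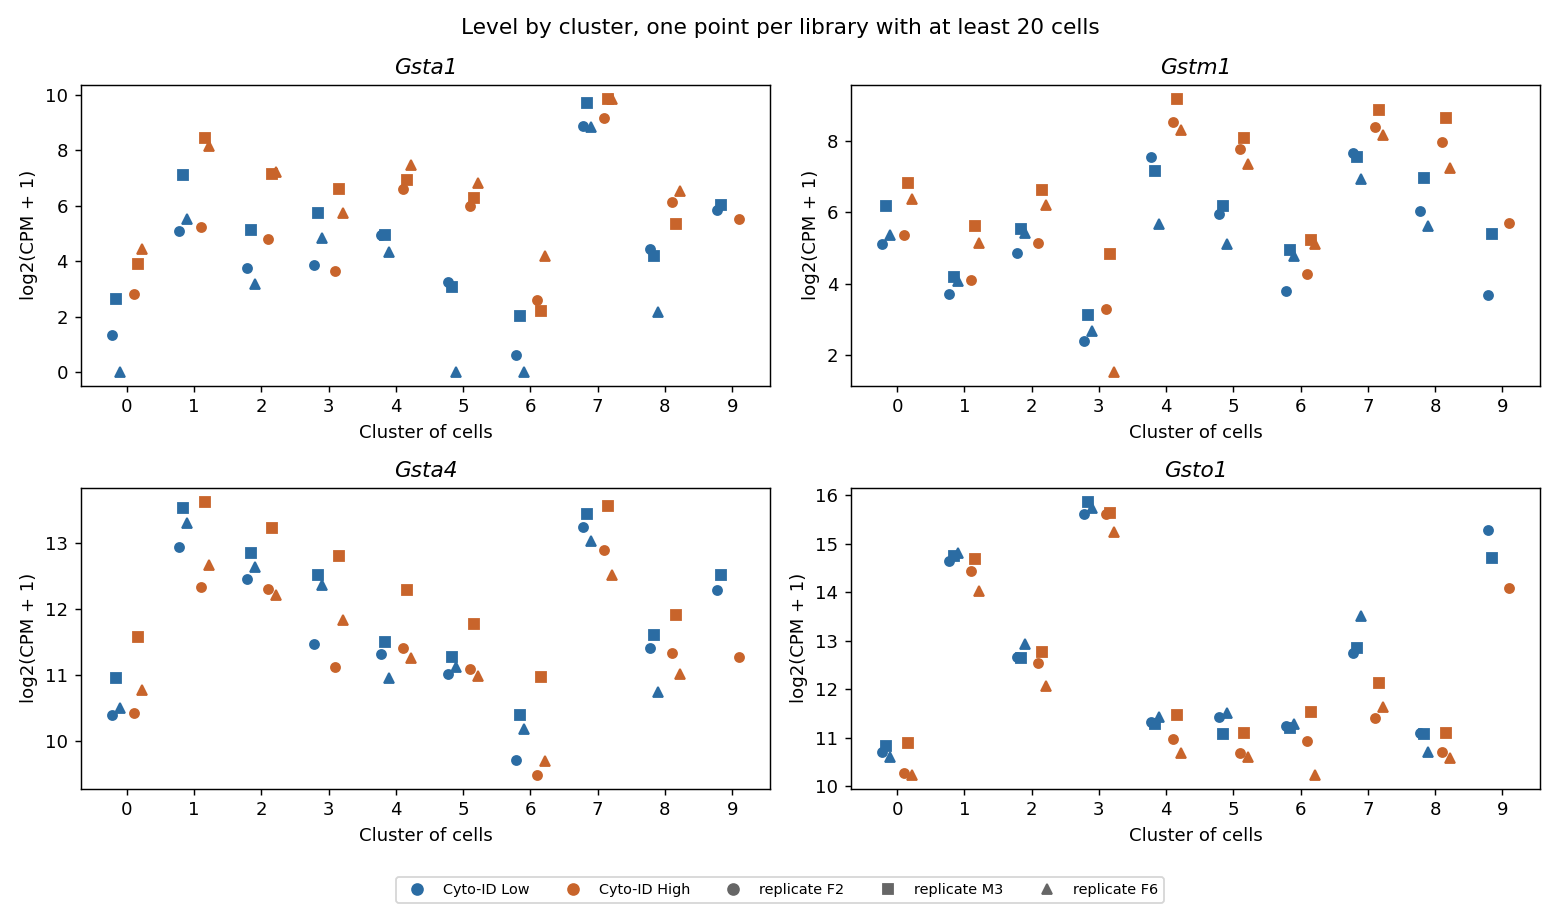
Level of Gsta1, Gstm1, Gsta4 and Gsto1, as log2(CPM + 1), in clusters 0 to 9; each point is 1 library with at least 20 cells in the cluster, blue for Cyto-ID Low and orange for Cyto-ID High. Gsta1 peaks in cluster 7, Gstm1 in clusters 4 and 7, Gsta4 in clusters 1 and 7 and Gsto1 in cluster 3.

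The step from basal-like to suprabasal-like cells differed between the groups for 3 members. For each library, the basal-like level was subtracted from the suprabasal-like level on the scale of log2(CPM + 1) after scaling, and these steps were compared. The step of Gsta4 was 2.64, 2.64 and 2.90 in the Low and 1.79, 1.89 and 1.64 in the High libraries. That of Gsto1 was 3.53, 3.65 and 3.96 against 2.93, 2.76 and 2.85. Gsta1 stepped by 3.88, 4.83 and 4.73 against 2.82, 3.79 and 2.89. In all 3 genes each High library lay below each Low library, a separation met by 10.1% of genes. Gstm1, Gstm2, Gstm5 and Mgst1 separated the other way, with each High library above each Low library, as 8.73% of genes did. The steps fell by 0.95 ± 0.12 in Gsta4, by 0.87 ± 0.13 in Gsto1 and by 1.31 ± 0.27 in Gsta1 from Low to High (SE; limma adjusted p = 0.00181, 0.00580 and 0.0374), where 0.978% of 11961 genes passed.

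For the other members the difference in the step did not pass. Gstm1 had steps of -0.42, -0.67 and -0.85 in the Low and 0.01, 0.12 and -0.13 in the High libraries (0.65 ± 0.15; adjusted p = 0.0639). Gstm1 passed without Low F2 (0.0378), with plain CPM (0.0382) and with the replicate block (0.00767). Gsta2 passed with the block alone (-0.94; 0.0407), where 4.51% of genes passed. Gsta4 kept its call without any single library (0.00138 to 0.0262) and without clusters 4 and 7 (-0.76; 0.0256). Gsto1 lost it without High F6 (-0.87; 0.0502), and without clusters 4 and 7 its difference was -0.14 (0.909). Gsta1 lost it without High F2 (0.113), Low M3 (0.0864), Low F6 (0.167) or High F6 (0.163), and without clusters 4 and 7 (-1.14; 0.893).

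**Figure D5:**
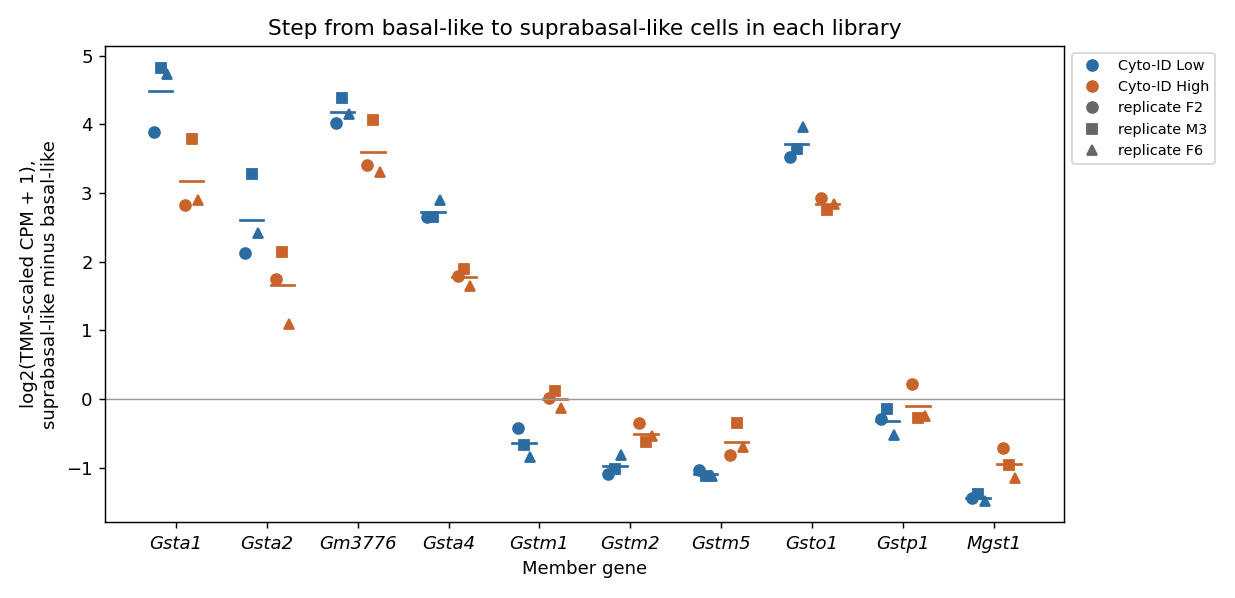
Suprabasal-like minus basal-like level of each member in each library, on the scale of log2(CPM + 1) after scaling; points are libraries and bars group means, blue for Cyto-ID Low and orange for Cyto-ID High. Each of Gsta1, Gsta4 and Gsto1 has its High points below its Low points, and each of Gstm1, Gstm2, Gstm5 and Mgst1 has its High points above its Low points.

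Over the 24 profiles made by 6 libraries and 4 classes, members were compared by the correlation of log2(CPM + 1). The profiles share libraries and depth, so these values are descriptions. Gsta1 and Gm3776 correlated at r = 0.98, with shared reads, and Gsta2 with Gm3776 at 0.90. Gstm1 and Gstm2 correlated at 0.95, and Gstp1 and Mgst1 at 0.86. Gsta2 correlated with Gstm1 at 0.68 and with Gsta4 at 0.45, and Gsta4 with Gsto1 at 0.67. Gsto1 ran against Mgst1 at -0.88 and against Gstm5 at -0.84. Among 7006 genes outside the family with a mean of at least 10 CPM, those most like Gsto1 were Pdzk1ip1 (0.99), Mal (0.99) and Prss27 (0.99). Those most like Gsta4 were Pmvk (0.95), an enzyme of the mevalonate pathway, Gm16136 (0.94) and Dusp22 (0.93). Gstm1 was matched best by Nme1, Tmem132a and Gcat (0.95 each), Gstp1 by Erh (0.97), Snrpf and Mapk6 (0.95 each), and Mgst1 by Ddx10, Tomm20 and mt-Cytb (0.98 each). Gsta1, added after its values were seen, was matched best by Sptssb (0.95), Chchd10 (0.91) and Cyp4f39 (0.90).

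The rest of the superfamily gave 0 calls by limma without the block, over all cells and in each class. Of 32 further family genes listed, 29 were in the tables and 22 were tested over all cells, where limma called 0 (3 at an unadjusted p under 0.05, against 940 of all 11645 genes) and the block, under which 0.584% of genes passed, called 1, Gstm6 (1.59; adjusted p = 0.0229), a mu gene at 1.36 ± 0.86 CPM in the Low and 5.85 ± 2.88 CPM in the High libraries (SD, n = 3). Gsta3 was at 45.7 ± 16.6 against 68.8 ± 18.3 CPM (adjusted p = 0.615), and it passed with the block in basal-like cells (1.02; 0.0316), where Gstm6 was the other family gene of 21 to pass (1.62; 0.0316), against 0.913% of all genes. Of the microsomal relatives, Mgst2 was at 93.7 ± 29.4 against 132.6 ± 20.2 CPM and Mgst3 at 32.1 ± 22.6 against 33.5 ± 16.1 CPM. The GST-fold chloride channel proteins Clic1, Clic3 and Clic4 had log2 changes of -0.01, -0.30 and 0.02, and the prostaglandin E synthases Ptges and Ptges2 of -0.54 and 0.16. Gsto2, Gstp2, Gstt3, Gstz1 and the elongation factor subunit Eef1g lay between -0.21 and 0.16. The median log2 change was 0.11 over the 22 genes and -0.00230 over all genes tested, and 0.91 over the 10 members. Because the members were chosen with this contrast known, nothing is read from the difference between the members and the rest of the family.

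Genes that supply and use glutathione also gave 0 calls by limma without the block, over all cells and in each class. Over all cells an unadjusted p under 0.05 was met by 3 genes of synthesis and recycling, 0 of the list of peroxidases and glutaredoxins, 2 of conjugate export and 1 NRF2 regulator, against those 940 of 11645 genes. In basal-like cells 6 of 21 synthesis and recycling genes met it and 17 had a positive change (median 0.37), against 770 of 11613 genes, 5676 positive and a median of -0.00994 over all genes. In proliferating-like cells it was again 6 of 21, with 17 positive (median 0.39), against 942 of 11651 genes, 6139 positive and a median of 0.024. In suprabasal-like cells 1 of 20 met it, against 1393 of 10962 genes, and in superficial-like cells 2 of 20, against 203 of 10169. The lists of peroxidases and glutaredoxins, of export and of NRF2 regulators had 1 gene each under that p in basal-like and in proliferating-like cells. In suprabasal-like cells these lists had 1 of 12, 2 of 10 and 2 of 10 genes under it, and in superficial-like cells 0 each. Over all cells, among 20 tested genes of glutathione synthesis and recycling, 13 had a positive log2 change, with a median of 0.29. The cystine transporter Slc7a11 (0.92; adjusted p = 0.615) and the amino acid transporter Slc1a4 (0.94; 0.505) had the smallest p upward, and glutathione reductase Gsr (-0.33; 0.773) and thioredoxin reductase Txnrd1 (-0.31; 0.761) downward. Of 12 genes tested from the list of glutathione peroxidases and glutaredoxins, which also holds glyoxalase genes such as Hagh, the median was 0.28, with Glrx2 (0.49) and Hagh (0.55) upward and Gpx8 (-0.30) and Glrx (-0.22) downward. Of 10 genes of conjugate export and mercapturate steps, the median was 0.21, with Kyat1 (0.67) and Ggt6 (0.48) upward and the export pump Abcc3 (-0.09) downward. The 10 regulators of NRF2 had a median of -0.13. Nfe2l2, which encodes NRF2, was at 187.8 ± 18.8 against 236.9 ± 50.7 CPM (SD, n = 3; 0.42, adjusted p = 0.694) and its partner Mafk had a change of 0.15. The related factors Nfe2l3 and Nfe2l1 had changes of -0.82 and -0.23 (0.505 and 0.792). With the replicate block, Gpx2 (1.35; 0.0295) and Kyat1 (1.35; 0.0258) passed in suprabasal-like cells, as did Gstm6 (2.15; 0.0129), where 3.28% of all genes passed.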

How the data were processed

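Values were deposited by the authors as natural log values, ln(1 + UMIs per 10000 of a cell), from the values. Cell Ranger 6.0.0 and Seurat 4 with mm10 (GRCm38) are named per the submitters' processing notes. Each cell's whole UMIs were recovered exactly (tolerance 1e-06), and no doublet caller was run here. The 10 members, the lists and the tests were chosen with earlier results of these data known. Cells with at least 500 genes were clustered with Seurat 5.3.0 (reciprocal PCA, 2000 variable genes without the GST family, 30 components, Louvain resolution 0.5). Clusters were named by the highest mean log2 fold of fixed markers, and left unnamed where that was not above 0 or where the median UMI count was under 0.33 times that of their samples.

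Mean CPM per library and class, scaled by the trimmed mean of M values (30% and 5% trims), plus a pseudocount of 1, was tested on the log2 scale with limma 3.58.1 (mean-variance trend) over every gene reaching 1 CPM in 3 or more libraries, Benjamini-Hochberg threshold 0.05. The fit was tested on simulated data. Libraries of the same replicate label are called a pair. The main fit was unpaired, and the label entered only as the block, an alternative. As a check of the pairs, each gene's group mean was subtracted from its log2 values, for genes averaging at least 5 CPM. These deviations, not the levels themselves, correlated between same-label libraries over all cells at 0.76 (F2), 0.58 (M3) and 0.15 (F6). Those of Low F2 and High F6 correlated at 0.17 too. Named genes were all members, other family genes averaging 10 CPM or more, and of each other list the 2 with the smallest p in each direction above 5 CPM. Gsta1 in the likeness, and Gstm6, Gpx2 and Kyat1 as calls made with the block, were named after their values were seen. Alternatives were the replicate block, other pseudocount, filter, scaling, cell minimum, voom, Louvain resolutions, each library left out, and 2 clusters left out.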

Additional observations from a re-analysis of the deposited data

Results flagged for a closer look

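The step from basal-like to suprabasal-like cells differed between Cyto-ID groups for 3 members, by a test of the difference itself. For Gsta1 the High-minus-Low difference of the step was -1.31 on the log2 scale (limma adjusted p = 0.0374), from a mean step of 4.48 in the Low to 3.17 in the High libraries. For Gsta4 it was -0.95 (0.00181), from 2.73 to 1.77. For Gsto1 it was -0.87 (0.00580), from 3.71 to 2.84. In all 3, each High library had a smaller step than each Low library, as in 10.1% of genes, while Gstm1, Gstm2, Gstm5 and Mgst1 separated with High above, as in 8.73%. The call on Gsta1 was lost without High F2, Low M3, Low F6 or High F6, with cells of at least 1000 genes (0.15), at Louvain resolution 0.3 (0.0525) and without clusters 4 and 7 (-1.14; 0.893). The call on Gsto1 was lost without High F6 (0.0502). Without clusters 4 and 7 the difference for Gsto1 was -0.14 (0.909) and that for Gsta4 -0.76 (0.0256). The part of either cluster alone was not tested.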

How the results depend on the processing

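The number of members called moved with the settings. Over all cells it was 1; it was 5 with the replicate block, 2 with plain CPM, and 0 with a pseudocount of 0.1 CPM, no filter, cells of at least 1000 genes, voom or clusters 4 and 7 left out, with 0 to 3 when single libraries were left out. In basal-like cells 4 became 1 with a pseudocount of 0.1 CPM or cells of at least 1000 genes, and 0 with no filter or without clusters 4 and 7 (0 to 4 over left-out libraries). The minimum of 1000 genes fell unevenly on libraries. It kept 1412 of 1454, 2185 of 2330 and 444 of 1062 basal-like cells in the Low libraries. In the High libraries it kept 1828 of 1867, 375 of 1669 and 205 of 1788. In proliferating-like cells 4 became 2 with a pseudocount of 0.1 CPM and 0 with no filter (1 to 5). In suprabasal-like cells 1 became 5 with the block and at Louvain resolution 1.0, 2 with plain CPM and with voom, and 0 with a pseudocount of 0.1 CPM, no filter or clusters 4 and 7 left out (0 to 4). For the layer step 3 became 5 with the block, 2 with cells of at least 1000 genes or resolution 0.3 (Gsta4 and Gsto1), 1 without clusters 4 and 7 and 0 with no filter (1 to 4). With no filter, 0 genes passed in any comparison. The cause of these shifts was not tested. Superficial-like counts of members were 0 throughout (2 of all genes, 0 to 3 over the settings), and cells of at least 1000 genes could not be used there because 1 library kept 23. Over all genes tested, counts of calls also moved by over 1.5 times: over all cells 20 became 68 with the block, 5 with the smaller pseudocount or without clusters 4 and 7, 13 with deeper cells and 4 by voom (3 to 20 over left-out libraries). In basal-like cells 27 became 106, 16, 2 and 13 with the block, the smaller pseudocount, those clusters left out and deeper cells (6 to 42). In proliferating-like cells 25 became 8 with the smaller pseudocount (1 to 62). In suprabasal-like cells 37 became 360 with the block, 0 with the smaller pseudocount, 64 by voom, 159 at resolution 1.0 and 1 without those clusters (0 to 94). For the step 117 became 539, 68, 23 and 4 with the block, the smaller pseudocount, deeper cells and those clusters left out, and 240 at resolution 1.0 (18 to 170).

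No called value of a member changed sign. Uncalled values did in 32 of 840 recomputed member values. Gsta4 over all cells was 0.02, and -0.087 with plain CPM, -0.057 with cells of at least 1000 genes, -0.11 by voom, -0.17 without clusters 4 and 7, and -0.45 to 0.33 over left-out libraries. There Gstm5 ranged from -0.44 to 0.10 and Mgst1 from -0.059 to 0.74. In basal-like cells Gsto1 was -0.03, 0.061 with cells of at least 1000 genes, 0.044 by voom and -0.26 to 0.084 over left-out libraries, Mgst1 ranged from -0.12 to 0.66, and Gstp1 was -0.041 without clusters 4 and 7. In suprabasal-like cells Gsta4 ranged from -0.67 to 0.069 and Gstm5 from -0.15 to 0.50, and Gstp1 was -0.24 without those clusters. In superficial-like cells the ranges were -0.38 to 1.18 (Gsta1), -0.20 to 1.09 (Gsta2), -0.54 to 0.96 (Gm3776), -0.91 to 0.036 (Gsta4), -0.53 to 1.26 (Gstm1), -0.95 to 0.30 (Gstm2, 0.64 by voom) and -0.33 to 0.70 (Gstp1). For the step, Gstm2 was -0.27 and Gstp1 -0.20 without those clusters. The replicate block changed no call on members other than those given. Plain CPM moved the median of all genes from -0.00230 to -0.10 over all cells and from -0.01 to -0.15 in basal-like cells.

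The least counts lay behind the lowest levels: in the Low F6 library the alpha copies had 0 to 3 UMIs in basal-like and 1 or 2 in proliferating-like cells.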
